A study of Mus musculus with 6 samples.

Results

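Ankrd1, Ankrd23, Xirp1, Xirp2, Ccn2, Rcan1, Uchl1, Ace, Nmrk2 and Acta1 are 10 genes of the response of heart muscle to stress and mechanical load. They were chosen by name, out of 46078 gene features counted. RNA was sequenced from mouse cardiomyocytes, the contracting cells of the heart, taken from perfused hearts, in 2 groups: Acly-KD (Acly_KD, n = 3), in which Acly was knocked down in mice with Cas9 under MyH6, a promoter of heart muscle cells, and control (n = 3), labelled wildtype. Acly encodes ATP citrate lyase, which makes cytosolic acetyl-CoA. The labels do not say whether the controls also carried Cas9, how guides were delivered, of what strain, age and sex the mice were, or whether each library came from its own animal. The p-values therefore reflect only how these libraries varied, and that variation may be technical.

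Stretch and strain reach the nucleus of a heart muscle cell by several routes. Titin and the Z-disc hold muscle ankyrin repeat proteins that move to the nucleus, actin dynamics free the MRTF coactivators of serum response factor (SRF), the YAP and TEAD proteins act on targets such as Ccn2 and Ankrd1, and calcium activates calcineurin, whose NFAT factors induce Rcan1. Several of these genes are known to be induced by overload, among them Ankrd1, Acta1, Nmrk2 and Uchl1.

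The counts look assigned to the strand opposite to the transcripts. The libraries held 672133, 460222 and 799868 counted reads in Acly_KD replicates 1 to 3, against 271463, 814765 and 753509 in control replicates 1 to 3. Of the nuclear features matched to the mm10 annotation, 18% have an exon opposite to an exon of another gene, and these held 91.9% of the nuclear reads. Each gene was therefore read in 2 ways: at its own row, as deposited, and, where an annotated feature lies opposite to its exons, at the row of that feature. In the second way, called here the reading of mRNA, the counts of the feature opposite were given to the gene. Acly itself received 0, 0 and 0 reads at its own row in Acly_KD replicates 1 to 3, against 1, 5 and 6 in control replicates 1 to 3, and has no exon opposite to it. Opposite to Xist, the RNA that coats an inactive X chromosome in females, lay 0, 0 and 0 reads in Acly_KD replicates 1 to 3, against 0, 149 and 137 in control replicates 1 to 3, so that control replicates 2 and 3 stood apart. Of the markers of heart muscle cells 9 of 9 had enough reads at their own rows to be tested, as had 3 of 6 of pericytes and smooth muscle, 2 of 7 of endothelial cells, 1 of 6 of macrophages (Csf1r), 0 of 7 of fibroblasts and 0 of 6 of neurons and glia. The pericyte and smooth muscle markers summed to between 26.1 and 142 CPM in Acly_KD and between 90.6 and 94.7 CPM in control, and those of macrophages to between 75.7 and 96.7 CPM in Acly_KD and between 87.4 and 122 CPM in control, with Adgre1 at 0 reads. Most of the macrophage sum was Csf1r, at 75.7 to 96.7 CPM in Acly_KD and 61.9 to 114 CPM in control. The other macrophage markers held at most 9 reads in any library, so that the sum says little about macrophages. Of the markers of endothelial cells, macrophages, fibroblasts, and neurons and glia, 0 could be read on the strand opposite. If the counts are strand-swapped, the sums at own rows are no direct measure of cell content.

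Of the 10 genes, 5 have a feature whose exons overlap theirs on the other strand: Gm13601 opposite Xirp2, Gm15270 opposite Ccn2, Uchl1os opposite Uchl1, Gm11651 opposite Ace and Atcayos opposite Nmrk2. Ankrd1, Ankrd23, Xirp1, Rcan1 and Acta1 have none, so that they have only their own rows. The bases shared with the feature opposite are 168 for Xirp2, 665 for Ccn2, 295 for Uchl1, 295 for Ace and 270 for Nmrk2. In the same order, these features have 404, 2053, 2190, 1526 and 4375 exonic bases. Their reads may therefore come in part from another transcript than the gene's mRNA, which these counts cannot tell apart. The overlap was taken from GENCODE M21; the release behind the deposited counts is unknown here.

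Coding parts of the shared exons of Xirp2, Uchl1 and Ace, stretches through which their mRNA could be counted, are shown 5′ to 3′ on the strand of the gene, from GENCODE M21 transcripts (mm10, plus strand). Capitals mark bases shared with the feature opposite, and lower case marks neighbouring coding bases of the same transcript.
Xirp2, 168 bases at chr2:67516358-67516525: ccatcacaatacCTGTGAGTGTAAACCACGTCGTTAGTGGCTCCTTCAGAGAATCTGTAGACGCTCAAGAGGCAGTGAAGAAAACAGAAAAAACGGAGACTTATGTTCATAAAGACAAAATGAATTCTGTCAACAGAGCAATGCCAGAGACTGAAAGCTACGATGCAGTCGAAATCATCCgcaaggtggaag
Uchl1, 33 bases at chr5:66676290-66676322, from the start codon, joined by splicing to 12 bases at chr5:66676436-66676447: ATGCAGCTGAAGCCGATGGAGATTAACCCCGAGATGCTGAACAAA
Ace, 173 bases at chr11:105972361-105972533: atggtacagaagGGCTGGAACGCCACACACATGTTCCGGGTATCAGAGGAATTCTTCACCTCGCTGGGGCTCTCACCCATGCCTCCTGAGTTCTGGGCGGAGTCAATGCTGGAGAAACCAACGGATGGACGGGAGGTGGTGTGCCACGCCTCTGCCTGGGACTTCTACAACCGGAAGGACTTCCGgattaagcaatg
Ace, 122 bases at chr11:105985573-105985694: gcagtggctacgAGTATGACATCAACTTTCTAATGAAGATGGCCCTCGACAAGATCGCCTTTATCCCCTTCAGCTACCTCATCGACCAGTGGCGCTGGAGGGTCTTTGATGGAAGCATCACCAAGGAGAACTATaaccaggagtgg
All 168 shared bases of Xirp2 and all 295 of Ace are coding, against 45 of the 295 of Uchl1, and 0 of the 270 of Nmrk2, which lie in its untranslated end.

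The promoters of 8 of the 10 genes are in the RefSeq table (GRCm38.p6), as 11 windows of 300 bases; Ccn2 and Xirp1 are not in it. CATTCC, the core of the MCAT element that TEAD factors bind, was found on either strand in 4 of the 11 windows, against 14.7% of all 32851 windows. A CArG box, the element that SRF binds, was found in 1 of the 11, against 1.63% of all windows, and the motifs did not overlap each other. The 250 bases before the RefSeq start of Ankrd1 and of Acta1 are shown as examples of known TEAD and SRF targets. Capitals mark the matches, which are descriptions and not measured sites.
Ankrd1, chr19:36119845-36120094, minus strand: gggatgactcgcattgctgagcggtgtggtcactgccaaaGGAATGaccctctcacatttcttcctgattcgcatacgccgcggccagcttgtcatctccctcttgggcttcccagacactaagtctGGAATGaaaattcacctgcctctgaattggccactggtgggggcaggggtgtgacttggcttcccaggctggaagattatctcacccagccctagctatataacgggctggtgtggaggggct
Acta1, chr8:123894776-123895025, minus strand: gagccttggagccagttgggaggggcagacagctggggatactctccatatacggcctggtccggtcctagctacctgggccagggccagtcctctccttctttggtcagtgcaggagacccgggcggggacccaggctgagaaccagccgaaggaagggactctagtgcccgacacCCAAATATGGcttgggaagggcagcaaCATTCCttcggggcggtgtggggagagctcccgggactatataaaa
CATTCC, read here as GGAATG, begins 210 and 123 bases before the RefSeq start of Ankrd1. In GENCODE M21 Ankrd1 reaches to 36120099, so that the printed bases lie within its annotated span. In Acta1 the CArG box begins 73 bases and CATTCC 46 bases before the start.

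No row of these genes passed the test for a difference between Acly_KD and control. As deposited, 15 rows belong to the 10 genes and their 5 opposite features, and 11 had enough reads to be tested. Of these 11, 0 were called by edgeR's quasi-likelihood test at an adjusted p under 0.05, as for all 2952 features tested (0%), and 4 had an unadjusted p under 0.05 (6.1% of all features). DESeq2 also called 0 of the 11. In the reading of mRNA 4 of the 10 genes could be tested, 0 were called (0.413% of all 1453 genes tested, 0.206% higher and 0.206% lower) and 2 had an unadjusted p under 0.05 (8.6% of all genes). Levels are given in CPM, the reads at a row relative to the library size scaled by TMM, and log2 fold changes are Acly_KD over control. The CPM of the readings are not on one scale, since their library sizes differ.

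**Figure D1:**
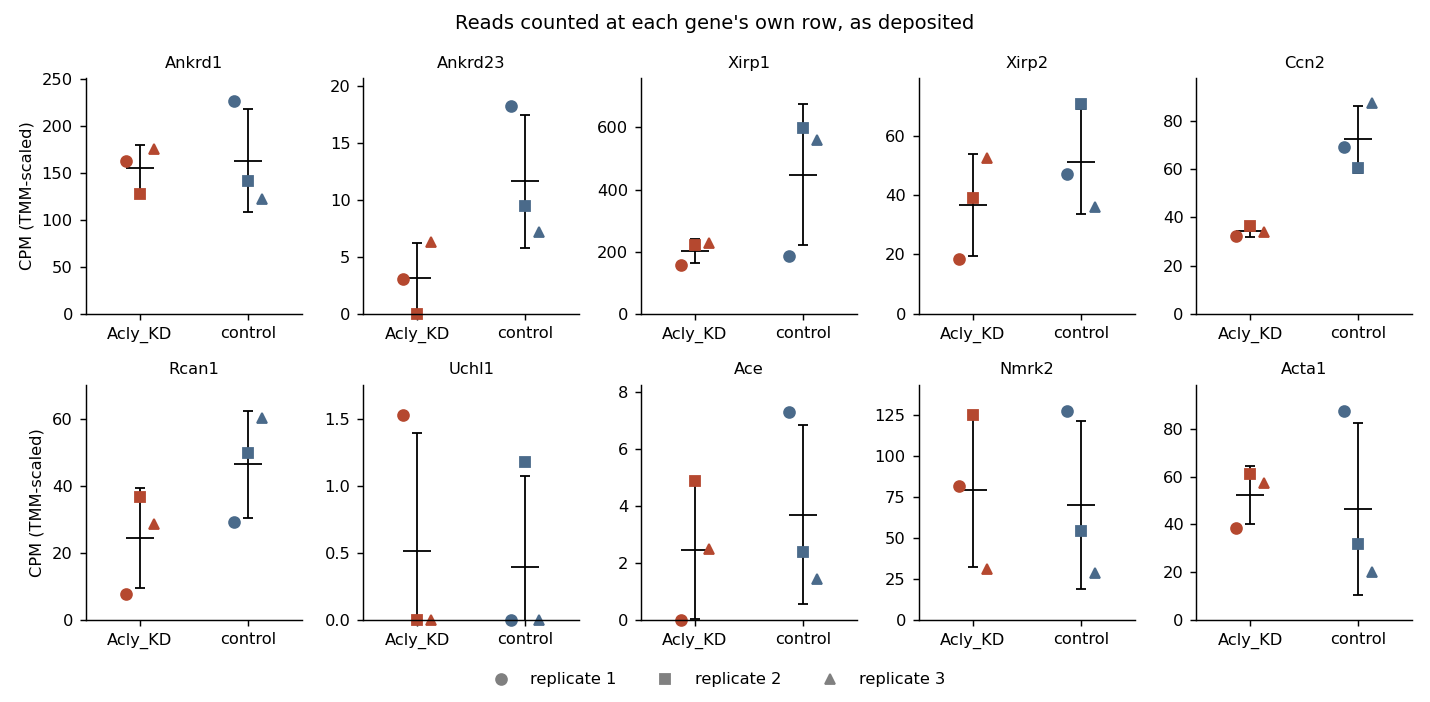
CPM at each gene's own row, as deposited, for the 3 Acly_KD libraries (left in each panel) and the 3 control libraries (right), with the mean and SD in black and an axis from 0 in each panel. The groups were apart for Ccn2, between 32.2 and 36.6 CPM in Acly_KD and between 60.3 and 87.7 CPM in control. They were also apart for Ankrd23, which had 0 to 5 reads in Acly_KD and 5 to 8 in control and was not tested. In the other panels they overlapped. Of the 7 own rows tested, 1 had groups apart, against 11.4% of all features tested, in either direction.

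Ankrd1 and Ankrd23 encode muscle ankyrin repeat proteins, which bind the N2A region of titin and are found in the nucleus after strain. Ankrd1 (chromosome 19, 36111961 to 36120099, minus strand) had 163, 127 and 175 CPM at its own row in Acly_KD replicates 1 to 3, against 226, 141 and 122 CPM in control replicates 1 to 3. The groups overlapped, with control replicate 1 highest and control replicate 3 lowest of the 6. The mean was 155 ± 24.9 CPM in Acly_KD and 163 ± 55.2 CPM in control (SD, n = 3 each). Its log2 fold change was -0.016 (SE 0.24, 95% interval -0.54 to 0.50, adjusted p = 0.988 in edgeR), and its sign turned under several settings. Ankrd23 (chromosome 1, 36530188 to 36536883, minus strand) had 2, 0 and 5 reads in Acly_KD replicates 1 to 3, against 5, 8 and 5 reads in control replicates 1 to 3. Scaled to library size these were 3.07, 0 and 6.25 CPM in Acly_KD, against 18.2, 9.46 and 7.19 CPM in control, and the groups were apart. Acly_KD replicate 3 and control replicates 1 and 3 held 5 reads each, so that only scaling set these libraries apart. Of all features tested, 11.4% had groups apart, in either direction. Ankrd23 did not have enough reads to enter the fit, so that this share does not cover it. Its CPM gave p = 0.1 in a two-sided exact permutation test, which is the lowest p possible with 3 against 3.

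Xirp1 and Xirp2 encode the Xin actin-binding repeat proteins of the intercalated disc, where heart muscle cells join. Xirp1 (chromosome 9, 120013755 to 120023598, minus strand) had 158, 220 and 227 CPM in Acly_KD replicates 1 to 3, against 186, 598 and 561 CPM in control replicates 1 to 3. Control replicates 2 and 3 lay above all Acly_KD libraries, and control replicate 1 lay among them. For Xirp1 the log2 fold change was -1.19 (SE 0.41, 95% interval -2.18 to -0.20, adjusted p = 0.687 in edgeR; unadjusted p = 0.0252). Without control replicate 1 the test called Xirp1 lower in Acly_KD, at -1.48 (adjusted p = 0.00276 in edgeR). With each of the other libraries left out the adjusted p in edgeR lay between 0.351 and 0.9995. Control replicates 2 and 3 were also the libraries with reads opposite to Xist. With a model term marking these 2 libraries (the Xist term) the log2 fold change of Xirp1 was 0.12 (SE 0.29). That term leaves control replicate 1 as the only library to set against Acly_KD, and the part of this split in the result was not tested.

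Xirp2 (chromosome 2, 67446002 to 67526614, plus strand) could be read on both strands, and the values lay on opposite sides of zero. Its own row held 12, 16 and 42 reads in Acly_KD replicates 1 to 3, against 13, 60 and 25 in control replicates 1 to 3, giving -0.50 on the log2 scale (95% interval -1.39 to 0.40, adjusted p = 0.959 in edgeR). Gm13601, the feature opposite, held 1753, 647 and 1108 reads in Acly_KD, against 289, 1063 and 1147 in control. All of the opposite-strand overlap of Gm13601 is with Xirp2, but it covers only 168 of the 404 exonic bases of Gm13601. Whether the reads came from Xirp2 or from another transcript within these 404 bases cannot be told apart here. In the reading of mRNA the reads became 4895, 2949 and 2801 CPM for Xirp2 in Acly_KD replicates 1 to 3. In control replicates 1 to 3 they became 2056, 2468 and 3127 CPM. Acly_KD replicate 1 was the highest of the 6 libraries, while Acly_KD replicates 2 and 3 lay within the range of the controls. In this reading Xirp2 had a log2 fold change of 0.47 (SE 0.27, 95% interval -0.18 to 1.13, adjusted p = 0.679 in edgeR), and it was 0.17 without Acly_KD replicate 1.

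Acta1 encodes skeletal muscle actin, the fetal actin isoform of the heart and an SRF target. Acta1 (chromosome 8, 123891769 to 123894751, minus strand) had 38.4, 61.1 and 57.5 CPM in Acly_KD replicates 1 to 3, against 87.4, 31.9 and 20.1 CPM in control replicates 1 to 3. The controls enclosed the Acly_KD values, with control replicate 1 the highest of the 6 and control replicate 3 the lowest. Acta1 had a log2 fold change of 0.32 (SE 0.47, 95% interval -0.69 to 1.32, adjusted p = 0.965 in edgeR). It was 1.02 without control replicate 1 and -0.083 without control replicate 3. Acta1 shares long coding stretches with the other actin genes, and reads that could have been placed at several of them cannot be assigned from these counts.

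Ccn2, also known as connective tissue growth factor, encodes a secreted matricellular protein and is a target of YAP and TEAD. At its own row Ccn2 (chromosome 10, 24595442 to 24598683, plus strand) had 32.2, 36.6 and 33.7 CPM in Acly_KD replicates 1 to 3, against 69.2, 60.3 and 87.7 CPM in control replicates 1 to 3. All 3 Acly_KD libraries lay below all 3 controls; the groups did not overlap, in either direction, for 11.4% of all features tested. These values rest on 15 to 27 reads in Acly_KD and 19 to 61 reads in control. At that row the log2 fold change was -1.09 (SE 0.33, 95% interval -1.78 to -0.39, adjusted p = 0.549 in edgeR; unadjusted p = 0.00431). The row opposite, Gm15270, held far more reads, 1392, 761 and 776 in Acly_KD replicates 1 to 3, against 360, 2000 and 1872 in control replicates 1 to 3, and there the groups overlapped. Read as mRNA of Ccn2, these were 3887, 3469 and 1961 CPM in Acly_KD, against 2561, 4644 and 5104 CPM in control. Control replicate 1 lay below Acly_KD replicates 1 and 2, and control replicates 2 and 3 lay above every Acly_KD library. Of the 2053 exonic bases of Gm15270, 665 lie opposite to Ccn2, and reads from another transcript there cannot be told apart. As mRNA, Ccn2 had a log2 fold change of -0.41 (SE 0.40, 95% interval -1.48 to 0.65, adjusted p = 0.857 in edgeR), and 0.28 (SE 0.42) with the Xist term. Fibroblasts are a known source of Ccn2. At own rows their 7 markers summed to between 16.9 and 26.9 CPM in Acly_KD and between 12.9 and 26.0 CPM in control. Of these 7, 0 had enough reads there to be tested, and 0 could be read in the reading of mRNA. Their part in the result was not tested.

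Rcan1 encodes regulator of calcineurin 1, an inhibitor of calcineurin that calcineurin itself induces through NFAT. Rcan1 (chromosome 16, 92391953 to 92470867, minus strand) had 7.68, 36.6 and 28.7 CPM in Acly_KD replicates 1 to 3, against 29.1, 49.7 and 60.4 CPM in control replicates 1 to 3. The groups overlapped, since Acly_KD replicate 2 lay above control replicate 1. Rcan1 had a log2 fold change of -1.02 (SE 0.49, 95% interval -2.06 to 0.02, adjusted p = 0.846 in edgeR). It was -0.60 without Acly_KD replicate 1, which held 5 reads, and -0.30 with the Xist term.

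Ace encodes angiotensin-converting enzyme, which makes angiotensin II and is abundant on endothelial cells. Its own row (chromosome 11, 105967945 to 105989964, plus strand) held 0, 2 and 2 reads in Acly_KD replicates 1 to 3, against 2, 2 and 1 in control replicates 1 to 3, and was not tested. Opposite to it, Gm11651 held 235, 123 and 260 reads in Acly_KD, against 79, 172 and 132 in control. In the reading of mRNA these were 656, 561 and 657 CPM for Ace in Acly_KD replicates 1 to 3, against 562, 399 and 360 CPM in control replicates 1 to 3. Acly_KD replicate 2 and control replicate 1 were nearly level and the groups overlapped by that pair. Of the 1526 exonic bases of Gm11651, 295 lie opposite to Ace, and reads from another transcript there cannot be told apart. On the scale of the deposited features Gm11651 had 361, 300.4 and 325 CPM in Acly_KD against 288, 203 and 190 CPM in control, with groups apart. On that scale 11.4% of all features tested had groups apart, in either direction. The mean for Ace was 625 ± 55.5 CPM in Acly_KD and 440.4 ± 107 CPM in control (SD, n = 3 each). The difference was 0.55 on the log2 scale (SE 0.17, 95% interval 0.19 to 0.91, adjusted p = 0.194 in edgeR; unadjusted p = 0.00414), above zero with every library left out in turn, and 0.16 (SE 0.23) with the Xist term. Markers of endothelial cells at their own rows summed to 35.3, 51.3 and 246 CPM in Acly_KD replicates 1 to 3, against 149, 134 and 93.5 CPM in control replicates 1 to 3; 2 of the 7 were tested, all 7 had reads, and their part in the result was not tested. Of these 7 markers, 0 could be read in the reading of mRNA. In a bulk sample, a change in the number of cells of a type and a change in RNA per cell cannot be told apart.

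Nmrk2 encodes nicotinamide riboside kinase 2, a muscle enzyme of NAD synthesis. Nmrk2 (chromosome 10, 81198170 to 81202051, minus strand) had 81.4, 125 and 31.3 CPM at its own row in Acly_KD replicates 1 to 3, against 127, 54.4 and 28.8 CPM in control replicates 1 to 3. The spread within each group was larger than the difference between their means, 79.1 ± 46.7 CPM in Acly_KD and 70.2 ± 51.2 CPM in control (SD, n = 3 each). The log2 fold change was 0.25 (SE 0.65, 95% interval -1.27 to 1.77, adjusted p = 0.966 in edgeR), with values of -0.20 without Acly_KD replicate 2 and 0.92 without control replicate 1. Atcayos, the feature opposite, held 1, 5 and 5 reads in Acly_KD, against 1, 8 and 3 in control. Only 38.5% of the opposite-strand overlap of Atcayos is with Nmrk2, and its reads were not given to Nmrk2.

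Uchl1 encodes a ubiquitin C-terminal hydrolase that is abundant in neurons and is induced in stressed heart muscle. In the mouse its antisense transcript Uchl1os is known to raise translation of Uchl1. The own row of Uchl1 (chromosome 5, 66676091 to 66687234, plus strand) held 1, 0 and 0 reads in Acly_KD replicates 1 to 3, against 0, 1 and 0 in control replicates 1 to 3. Uchl1os held 8, 3 and 13 reads in Acly_KD replicates 1 to 3, against 9, 26 and 27 in control replicates 1 to 3. Given to Uchl1 in the reading of mRNA, these were 22.3, 13.7 and 32.9 CPM in Acly_KD, against 64.0, 60.4 and 73.6 CPM in control. All Acly_KD libraries lay below all controls; the groups did not overlap, in either direction, for 14.7% of all genes in this reading. Uchl1 had a log2 fold change of -1.44 (SE 0.45, 95% interval -2.37 to -0.52, adjusted p = 0.181 in edgeR; unadjusted p = 0.00361), and it ran from -1.79 to -1.24 with each library left out. Read as deposited, as Uchl1os, the log2 value was -1.44 (adjusted p = 0.579 in edgeR). Whether these reads came from Uchl1 or from another transcript on its strand within the 2190 exonic bases of Uchl1os cannot be told apart here. Of 6 markers of neurons and glia, 6 had 0 reads at their own rows in all libraries, which allows up to 3 reads each. Of these 6, 0 could be read in the reading of mRNA. If the counts are strand-swapped, the 0 reads are no direct measure of the RNA of these cells. Floors and intervals of read shares cover counting error only.

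**Figure D2:**
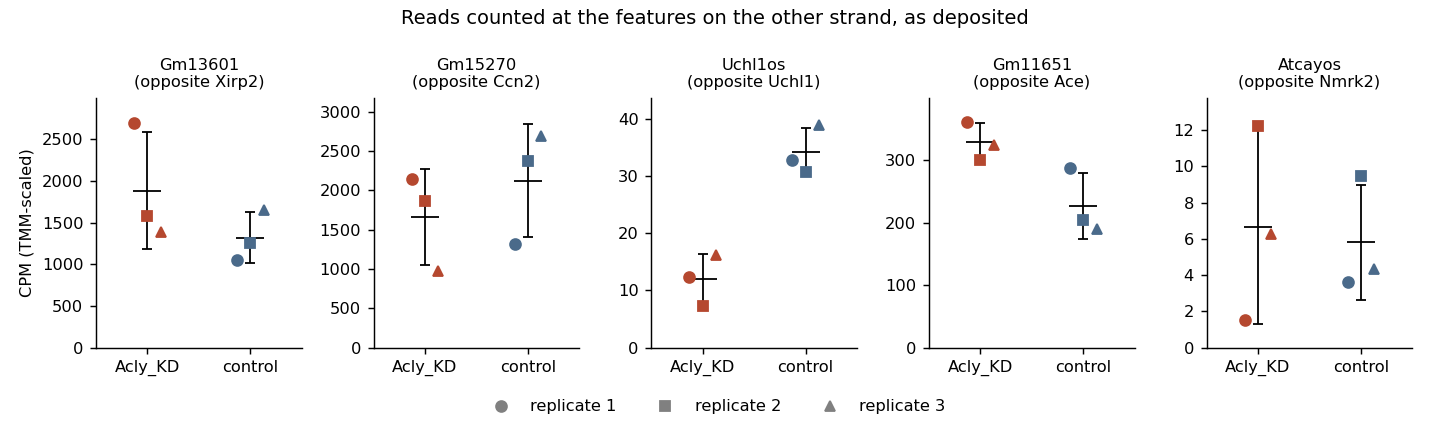
CPM at the 5 features opposite to Xirp2, Ccn2, Uchl1, Ace and Nmrk2, as deposited, in the 3 Acly_KD libraries (left) and the 3 control libraries (right), with the mean and SD in black. Uchl1os was between 7.33 and 16.2 CPM in Acly_KD and between 30.8 and 38.8 CPM in control, and Gm11651 between 300.4 and 361 CPM in Acly_KD and between 190 and 288 CPM in control; the other 3 overlapped. Of all features tested, 11.4% had groups apart, in either direction.

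The plot of fold changes sets the readings side by side. Xirp2 and Ccn2 are the only genes of the set with a tested row on each strand. For Xirp2 the intervals at the own row and in the reading of mRNA both include zero and overlap each other, at -1.39 to 0.40 and -0.18 to 1.13. For Ccn2 the value at the own row was -1.09 and in the reading of mRNA -0.41, where the interval of -1.48 to 0.65 includes the value at the own row. The difference between readings was not tested as such.

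**Figure D3:**
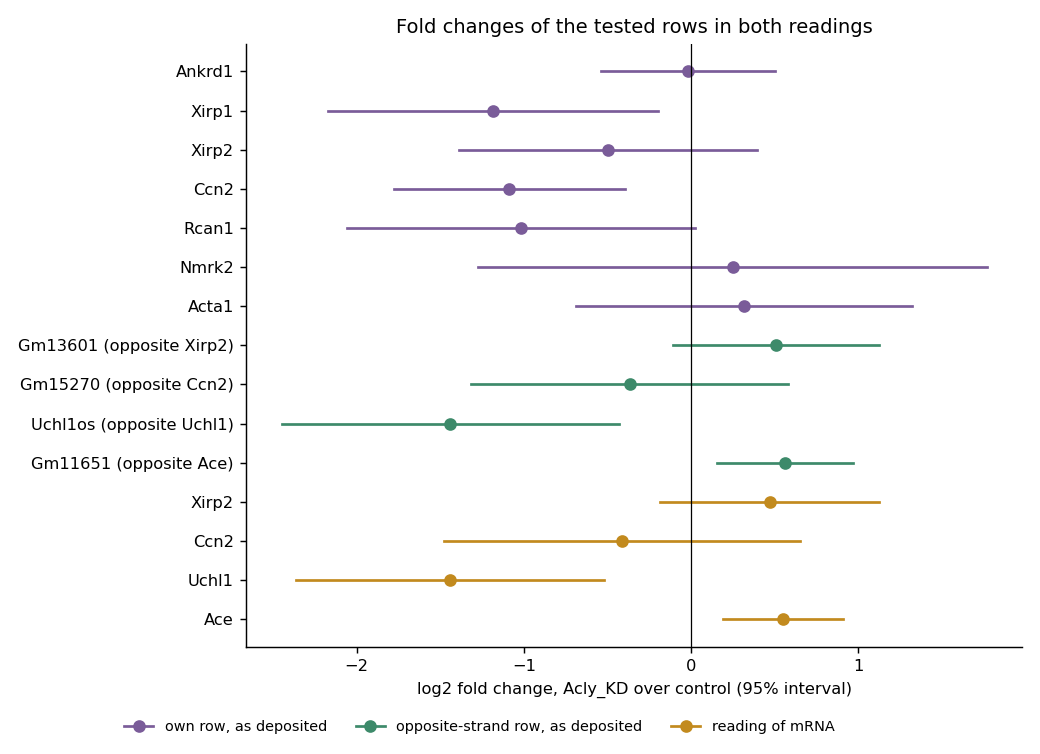
Log2 fold change, Acly_KD over control, with its 95% interval from edgeR, for the 7 own rows, the 4 opposite-strand rows and the 4 genes of the reading of mRNA that were tested. Uchl1 in the reading of mRNA lies lowest at -1.44 and Gm11651 highest at 0.56, and 0 of these rows passed an adjusted p of 0.05.

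The share of a pair's reads that fell at the gene's own row was small for 4 of the 5 pairs and large for the last. Summed over all libraries it was 2.72% for Xirp2 (168 of 6175 reads, 95% Wilson interval 2.34% to 3.16%), 2.64% for Ccn2 (194 of 7355, 2.29% to 3.03%), 2.27% for Uchl1 (2 of 88, 0.626% to 7.91%) and 0.891% for Ace (9 of 1010, 0.469% to 1.69%). For Nmrk2 it was 90.9% (230 of 253, 86.7% to 93.9%), with 23 reads at Atcayos against 230 at Nmrk2. The share for Xirp2 was 0.680%, 2.41% and 3.65% in Acly_KD replicates 1 to 3, against 4.30%, 5.34% and 2.13% in control replicates 1 to 3. For Ccn2 it was 1.49%, 1.93% and 3.36% in Acly_KD, against 5.01%, 2.49% and 3.16% in control. Acly_KD replicate 1 had the lowest share in both genes, and the groups overlapped in both. Two-sided exact permutation tests over the libraries gave p = 0.3 for Xirp2, 0.3 for Ccn2, 0.5 for Ace, 1 for Uchl1 and 0.9 for Nmrk2, where 0.1 is the smallest p possible.

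**Figure D4:**
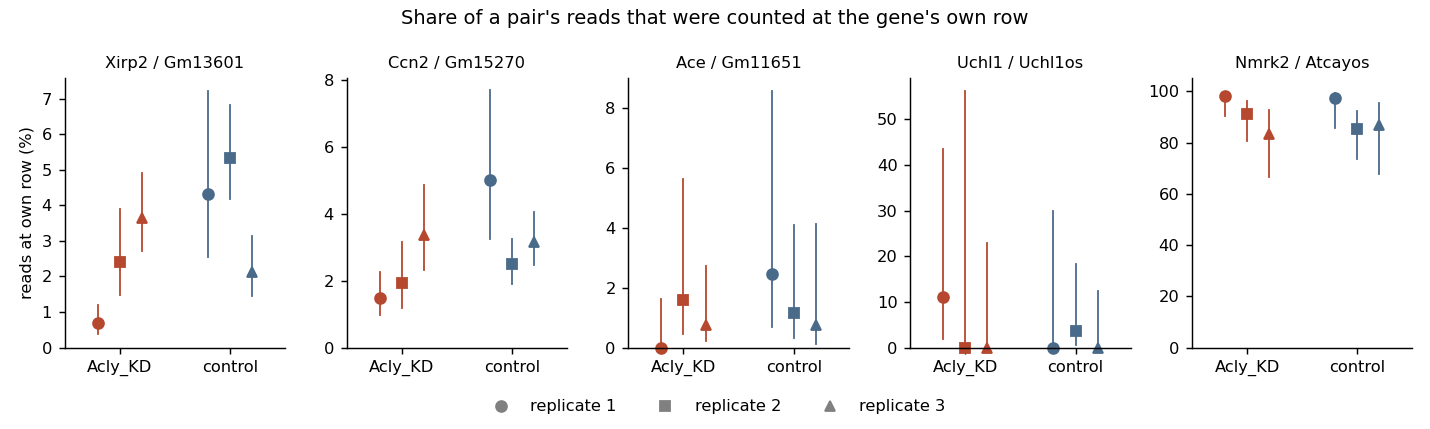
Reads at a gene's own row as a percent of the reads at that row and at the feature opposite, per library, with 95% Wilson intervals, for 5 pairs, Acly_KD left and control right. The shares of Xirp2 and Ccn2 lie between 0.680% and 5.34% in all libraries, those of Nmrk2 between 83.3% and 98.1%.

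Per kilobase of exon, the own rows of the 10 genes differed widely in level. In Acly_KD, Ankrd1 was highest at a mean of 53.7 CPM per kilobase, followed by Nmrk2 at 42.6, Xirp1 at 34.6 and Acta1 at 34.1. In control the order was Xirp1 at 76.7, Ankrd1 at 56.4, Nmrk2 at 37.9 and Acta1 at 30.3 CPM per kilobase. Ccn2 and Rcan1 came next in both groups, at 11.96 and 7.89 in Acly_KD and 25.3 and 15.0 in control, and Ankrd23, Xirp2, Ace and Uchl1 were lowest. The order among Ankrd1, Nmrk2, Xirp1 and Acta1 was not tested. If the counts are strand-swapped, reads at a gene's own row are no direct measure of its mRNA.

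The other genes of these routes were described from lists, as counts. At own rows, 14 of 16 tested genes of titin N2A and Z-disc stress sensing lay below zero (median log2 fold change -0.37), 3 of 4 of the MRTF and SRF list (-0.44), 3 of 3 of the calcineurin and NFAT list (-0.22), 3 of 3 of the ubiquitin list (-0.34) and 4 of 5 hypertrophy and fetal genes (-0.45), with 0 called in any. None of the 15 genes of the YAP and TEAD list, 10 of the renin-angiotensin list or 17 of the NAD list had enough reads at its own row to be tested. Among the 10 genes themselves 5 of 7 lay below zero, with a median of -0.50, against 54.4% of all features and a median of -0.040. With all uniquely aligned reads in place of the TMM-scaled library the median of all features was -0.14. The heart muscle cell markers lay below zero in 9 of 9, with a median of -0.43, and summed to 4142, 8552 and 15100 CPM in Acly_KD replicates 1 to 3, against 14080, 13170 and 11040 CPM in control replicates 1 to 3. Acly_KD replicate 1 had the lowest sum, also for the 10 stress genes and for the Z-disc and SRF lists, and the part of these markers in the values of the stress genes was not tested. In the reading of mRNA the 2 markers that could be read, Myl2 and Ttn, summed to 4840, 4485 and 4168 CPM in Acly_KD, against 3472, 3864 and 3318 CPM in control. Des, which encodes desmin, and Tcap, the titin cap, had the most reads of the Z-disc list, with log2 fold changes of -0.59 (SE 0.44) and -0.55 (SE 0.64). Tpm1 and Actc1, a tropomyosin and cardiac actin, led the SRF list at -0.53 (SE 0.64) and -0.34 (SE 0.43). Rcan2, a relative of Rcan1, was at -0.78 (SE 0.50) and Mef2d at -0.13 (SE 0.53) in the calcineurin list. Otub1, a deubiquitinase, was at -0.23 (SE 0.42) in the ubiquitin list. Myh6 and Myh7, the cardiac myosin heavy chains, were at -0.43 (SE 0.50) and -0.52 (SE 0.18).

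In the reading of mRNA few genes of these lists could be read, and those of the Z-disc had narrow intervals around zero. Trim54, a muscle ring finger protein of the sarcomere, was at -0.080 (95% interval -0.31 to 0.15) and Vcl, vinculin of the costamere, at 0.044 (95% interval -0.19 to 0.28). Of the YAP and TEAD list, Yap1 was at 0.093 (SE 0.19) and Ptpn14 at -0.44 (SE 0.30). Sirt3, a mitochondrial NAD-dependent deacetylase and the only tested gene of the NAD list, was at 0.18 (SE 0.47). In the ubiquitin list Usp14, a deubiquitinase of the proteasome, was at 0.24 (SE 0.19), and in the calcineurin list Mef2d was at -0.11 (SE 0.15). Nppa, the precursor of atrial natriuretic peptide, was at 0.56 (SE 0.70) and Myh7, the slow myosin heavy chain that rises in the stressed rodent heart, at -1.36 (SE 0.64, adjusted p = 0.621 in edgeR). Myh7 had 6694, 5014 and 6443 CPM in Acly_KD replicates 1 to 3, against 6993, 10230 and 29360 CPM in control replicates 1 to 3, and without control replicate 3 its log2 fold change was -0.50 (SE 0.15, adjusted p = 0.194 in edgeR). No gene of the renin-angiotensin list other than Ace, listed apart, could be read in this way. In the MRTF and SRF list 1 of 2 tested genes passed, Mrtfb, a coactivator of SRF. Its log2 fold change was 2.00 (SE 0.44, adjusted p = 0.0422 in edgeR). The own row of Mrtfb held 10 reads in all and was not tested. From the other strand Mrtfb was given 63, 12 and 41 reads in Acly_KD replicates 1 to 3. In control replicates 1 to 3 it was given 6, 13 and 7 reads. Whether these reads came from Mrtfb or from another transcript cannot be told apart here. Scaled to library size these were 176, 54.7 and 104 CPM in Acly_KD, against 42.7, 30.2 and 19.1 CPM in control, and the groups were apart. Of all genes tested in this reading, 14.7% had groups apart, in either direction. In edgeR the call was lost without Acly_KD replicate 1 (adjusted p = 0.238), without control replicate 1, 2 or 3 (0.0644, 0.0828 and 0.135), with all uniquely aligned reads as the library (0.0513) and with the Xist term (0.736). DESeq2 gave an adjusted p of 0.0539 and limma-voom 0.116. Mrtfb was not among the genes tested with at least 200 shared bases or a minimum count of 30. Tpm4, the other, was at -0.21 (SE 0.16).

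**Figure D5:**
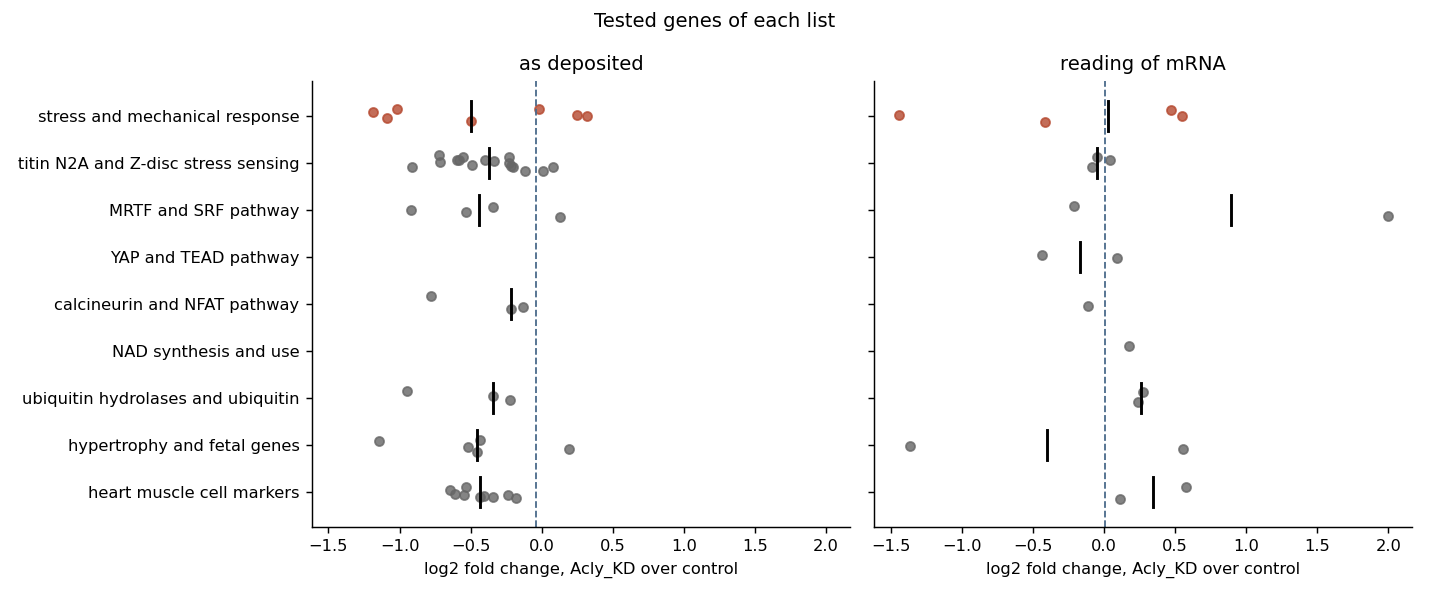
Log2 fold changes, Acly_KD over control, of the tested genes of each list at own rows as deposited (left) and in the reading of mRNA (right), with the median of each list as a black bar and the median of all features as a dashed line. The stress and mechanical response genes, in red, spread from -1.19 to 0.32 at own rows. In the reading of mRNA they spread from -1.44 to 0.55. The heart muscle cell markers lie from -0.65 to -0.18 at own rows. In the reading of mRNA the 2 tested markers lie above zero, Myl2 at 0.11 and Ttn at 0.58.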

How the data were processed

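Poly-A RNA was sequenced as paired ends from stranded libraries, per the labels' protocols. As tools, the submitters' processing notes list HTSeq, TopHat2, SAMtools, FastQC and DESeq2 with no version, and the build mm10; the strand setting is not stated. The authors deposited raw read counts per gene. Rows that name no gene took 97.4% to 97.7% of the entries of a library and stayed out of library sizes and tests.

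Libraries were grouped by title. Libraries of a group differed beyond counting noise (chi-square per degree of freedom 4.03 to 13.1). Exon overlaps came from GENCODE M21 (mm10), which held 45143 of the 46078 identifiers. In the reading of mRNA a nuclear feature's counts went to a gene on the other strand where the pair shared 50 bases or more, 80% or more of the feature's overlap lay in that gene, and that gene held fewer reads itself or was not in the tables; 2765 genes received reads. Counts were tested across the whole table with edgeR 4.0.16 in R 4.3.3 (TMM, robust quasi-likelihood fits, Benjamini-Hochberg at 0.05, low rows removed by filterByExpr at a count of 10). The steps were tested on simulated data. As deposited they recovered 6.15% of 1.5-fold, 27.4% of 2-fold and 63.3% of 3-fold changes. In the reading of mRNA they recovered 27.3%, 54.1% and 90.3%, so that many changes of 2-fold or less would be missed. Alternatives used DESeq2 1.42.0, limma 3.58.1, other scalings, filters and rules, a replicate block, a term for the 2 control libraries with Xist-opposite reads, and each library left out; a fit on features with no exon on the other strand was added after the data were seen. Precision is limited by 271463 to 814765 counted reads per library.

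The genes, lists, the rule of the reading of mRNA and the tests were chosen with earlier results of these data known. Named were all 10 genes and the features opposite to them, and of each other list the genes called, otherwise the pair of tested genes with the most reads; a gene that this rule names and a shared exon sequence are not reported here.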

Additional observations from a re-analysis of the deposited data

How the results depend on the processing

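Among the 10 genes, and as deposited also their opposite features, 0 were called in both readings under every alternative that kept all libraries. With each library left out the count ran from 0 to 1 as deposited, Xirp1 being called without control replicate 1. In the reading of mRNA it stayed at 0. Over all features as deposited, 0 were called, against 3 with no filter, 1 in the fit on features with no exon on the other strand, and 0 to 69 with each library left out, the highest without Acly_KD replicate 3. Over all genes in the reading of mRNA, 6 were called, against 2 scaled to all uniquely aligned reads, 0 with a minimum count of 30, 30 with no filter, 12 with the replicate block, 0 with the Xist term, 3 with at least 200 shared bases, and 1 to 20 with each library left out. The labels do not say whether the replicate numbers pair the libraries. As deposited, deviations of same-numbered libraries correlated at -0.064, -0.018 and -0.18. With 3 libraries per group these values cannot exclude a pairing. The block changed no call of the 10 genes.

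Of 233 log2 fold changes of tested rows under the alternatives, 218 kept their direction and their side of the threshold, 1 passed it (Xirp1) and 14 changed sign. None of these rows was called in the main fit, so that no call could be lost. Gm13601, Gm15270, Uchl1os and Gm11651 hold the same reads as Xirp2, Ccn2, Uchl1 and Ace read as mRNA. Those reads enter the tally in both readings. That tally holds the 10 genes and their opposite features; Mrtfb, called in the reading of mRNA, kept its call under 7 of 15 fitted alternatives and lost it under 8. Ankrd1 turned to 0.012 with DESeq2, 0.021 with its size factors, 0.082 with no filter, 0.11 without Acly_KD replicate 2, 0.29 without control replicate 1 (against -0.19 without control replicate 3) and 0.34 in the fit on features with no exon on the other strand. With the Xist term, values were 0.12 for Xirp1, -0.73 for Nmrk2, -0.75 for Acta1, 0.33 for Gm15270 and 0.28 for Ccn2 read as mRNA. With each library left out Nmrk2 ran from -0.20 (without Acly_KD replicate 2; -0.16 without control replicate 3) to 0.92, and Acta1 from -0.083 (without control replicate 3) to 1.02 (without control replicate 1). The causes were not tested. Ankrd23, Uchl1, Ace and Atcayos at their own rows were below the depth needed for a test.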
